A study of Mus musculus with 6 samples.

Results

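*Cdk5rap1*, *Cbfa2t2*, *Necab3*, *1700003F12Rik*, *Actl10*, *E2f1*, *Pxmp4*, *Zfp341* and *Chmp4b* are 9 neighbouring genes of mouse chromosome 2, between positions 154335380 and 154694785 of the mm10 build. They were taken by symbol from a table of 24421 genes, and all 9 were among the 15584 genes with enough counts to be tested. The region was chosen because earlier results of the same counts had shown several of these genes to differ between the genotypes and because the *Wnt1-Cre2* transgene is thought to lie there, so their differences between WT and mutant are given as a description, and the calls that the fit over all genes makes among them support nothing. The head RNA came from embryonic day (E)9.0 embryos whose labels name both C57BL/6 and CD1, and whose background was mixed CD1 and C57BL/6J by the study's methods. The 3 WT libraries were labelled SnrpB +/+. The 3 mutant libraries, labelled Het, came from *Snrpb*ncc+/- embryos, which carried 1 *Snrpb* allele with *loxP* sites around exons 2 and 3 together with the *Wnt1-Cre2* transgene. The study used *Wnt1-Cre2* to recombine that allele in neural tube and crest cells. Cells without Cre, such as those of blood, vessels, surface ectoderm and mesoderm, are left with 2 intact copies. What share of the neural tube cells was recombined was not measured here. Each library was a pool of 2 heads from different litters, matched for somite number. Whether the WT heads carried *Wnt1-Cre2* is not given in the sources used here, so the transgene and *Snrpb* heterozygosity cannot be told apart. In counts scaled for library size (CPM), *Snrpb* was at 427.4 ± 12.2 in WT and 426.4 ± 12.5 in mutants (SD, *n*=3 each; log2 fold change -0.00, SE 0.04). The groups overlapped, so this level does not check the labels; it also counts reads from the exons outside the deleted part and from cells with both copies.

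*E2f1* encodes an activating E2F transcription factor. Activating E2F factors pair with DP proteins and are held in check by the retinoblastoma family. Once released by cyclin-dependent kinases, they switch on genes of DNA replication and entry into S phase. The strain name of *Wnt1-Cre2* records *E2f1* as the site of the transgene. The other genes of the neighbourhood have unrelated products. *Cdk5rap1* encodes an enzyme that modifies mitochondrial tRNAs, *Cbfa2t2* a transcriptional corepressor of the ETO family, *Necab3* a calcium-binding protein with an EF hand, *Actl10* an actin-like protein, *Pxmp4* a peroxisomal membrane protein, *Zfp341* a zinc finger transcription factor and *Chmp4b* a subunit of the ESCRT-III membrane remodelling complex.

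The genes lie close together. *Necab3* (minus strand, 154544399 to 154558890) ends its upstream side 516 bases from the 3′ end of *E2f1* (minus strand, 154559407 to 154569892), so the *Necab3* promoter falls in the short gap between both genes. *Cbfa2t2* (plus strand, 154436481 to 154539356) ends 5042 bases before *Necab3*. On the other side, *Pxmp4* (minus strand, 154585758 to 154603708) lies 15865 bases beyond the start of *E2f1*. The start-site sequences of *Necab3* and *Cbfa2t2* are shown because these were the members of the region with higher levels in every mutant library than in every WT library. Both come from RefSeq for the same build, are cut where the annotated gene begins, and are written 5′ to 3′ on the strand of the gene. Capitals mark GC boxes (GGGCGG or its reverse complement CCGCCC) and a CCAAT box.
*Necab3*, chr2:154558891-154559104, minus strand: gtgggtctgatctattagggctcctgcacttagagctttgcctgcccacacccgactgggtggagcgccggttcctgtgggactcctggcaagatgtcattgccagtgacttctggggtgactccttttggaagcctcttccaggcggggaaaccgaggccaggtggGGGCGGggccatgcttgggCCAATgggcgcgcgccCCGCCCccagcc
*Cbfa2t2*, chr2:154436234-154436480, plus strand: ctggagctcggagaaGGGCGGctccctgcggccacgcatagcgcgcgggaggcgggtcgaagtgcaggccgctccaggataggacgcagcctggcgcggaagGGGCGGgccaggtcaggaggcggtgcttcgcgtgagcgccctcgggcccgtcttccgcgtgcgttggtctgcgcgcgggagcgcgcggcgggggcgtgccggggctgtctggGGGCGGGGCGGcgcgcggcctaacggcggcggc

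Over the full window of 250 bases before its RefSeq start, *Necab3* held 3 GC boxes and 1 CCAAT box at a GC content of 65.6%, the third GC box lying in the 36 bases not printed. *Cbfa2t2* held 4 GC boxes, 2 of them overlapping, at a GC content of 78.4%. On either strand, GGGCGG occurs in 32.9% and CCAAT in 34.2% of all 26734 such windows, and the median GC content is 52.4%. None of the 9 windows held TTTCCCGC, TTTCGCGC, TTTGCCGC or TTTGGCGC, 4 spellings of the E2F site, at least 1 of which occurs in 1.98% of windows, which says only that these letters are not there. The *E2f1* window is not printed, since its RefSeq start lies 466 bases inside the annotated gene.

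Levels within the region differed widely between genes. Per length, as CPM divided by kilobases of exon (RPKM), over the WT libraries, *Chmp4b* was highest at 58.5 ± 1.11 (SD, *n*=3), followed by *E2f1* at 9.13 ± 0.549. *Cbfa2t2* (5.01 ± 0.531) and *Cdk5rap1* (4.20 ± 1.04) came next, and their WT ranges overlapped. *Zfp341* stood at 1.90 ± 0.120 RPKM. The remaining 4 genes were weakly expressed: *Pxmp4* at 1.35 ± 0.244, *1700003F12Rik* at 0.794 ± 0.339, *Necab3* at 0.325 ± 0.0402 and *Actl10* at 0.292 ± 0.0653. *Pxmp4* and *1700003F12Rik* overlapped in range, as did *Necab3* and *Actl10*, while the other neighbours in this order did not. In the mutants *Necab3* reached 0.866 ± 0.181 RPKM, and *Cbfa2t2* (6.85 ± 0.147) and *E2f1* (6.84 ± 0.150) had nearly equal means.

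*Necab3* showed the largest difference of the 9 genes. Its CPM was 0.93, 0.82 and 0.73 in WT libraries 1 to 3, and 2.56, 2.38 and 1.68 in mutant libraries 1 to 3. Every mutant library lay above every WT library, with a gap between 0.93 CPM in WT 1 and 1.68 CPM in mutant library 3. The means were 0.827 ± 0.102 in WT and 2.21 ± 0.461 in mutants (SD, *n*=3 each), a log2 fold change of 1.41 (SE 0.21). In RNA of whole heads, more cells that express a gene and more RNA per cell cannot be told apart. These levels rest on few reads, 34, 48 and 27 in WT and 108, 181 and 112 in mutants. The kit preserves strand, but it is not stated whether the counting used it, and *1700003F12Rik* and *Actl10* lie on the other strand within the *Necab3* span. Of the *Necab3* exonic bases, 2.79% overlap exons of *1700003F12Rik*, and none overlap exons of *Actl10*.

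*Cbfa2t2* was also higher in the mutants. Its CPM was 48.4, 39.4 and 42.2 in WT and 57.9, 60.5 and 59.4 in mutants. The mutant libraries lay close together and above all WT libraries. The means were 43.3 ± 4.60 and 59.3 ± 1.27 CPM, a log2 fold change of 0.46 (SE 0.07).

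*E2f1* was lower in the mutants. Its CPM was 30.5, 28.8 and 27.0 in WT and 21.5, 21.2 and 22.1 in mutants, from 907 to 1693 reads per library. All 3 mutant libraries lay below all 3 WT libraries, and they spanned a narrower range. The means were 28.8 ± 1.73 and 21.6 ± 0.474 CPM, which put the mutants at 75.0% of WT, with a log2 fold change of -0.42 (SE 0.06).

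**Figure D1:**
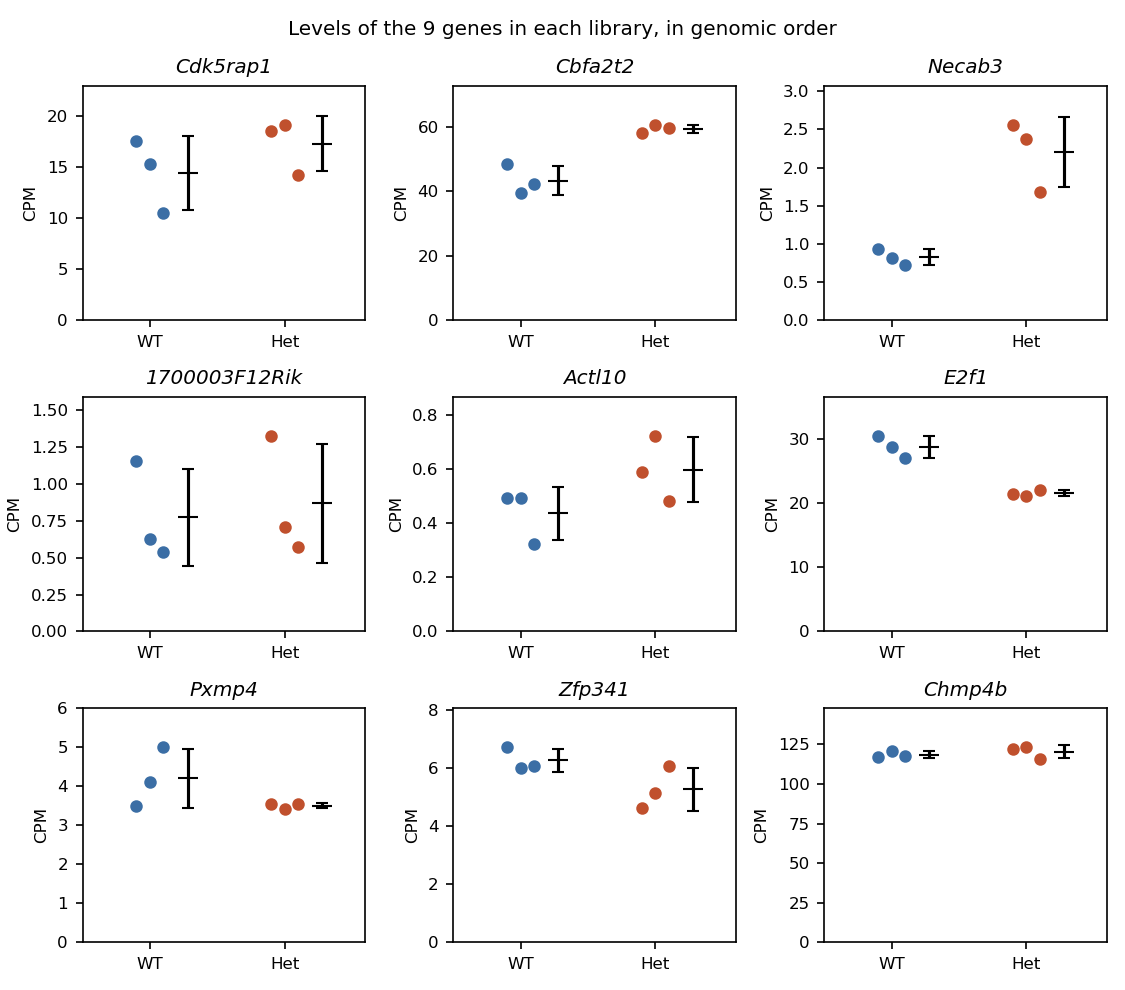
Level of each of the 9 genes in CPM by library, 1 panel per gene, with WT and mutant (Het) libraries as points, replicates 1 to 3 from left to right, and the group mean ± SD (*n*=3) in black. *Necab3* and *Cbfa2t2* have all Het points above the WT points, *E2f1* has all Het points below them, and the groups of the other 6 genes overlap.

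The other 6 genes had overlapping groups. At lower coordinates than *E2f1*, *Cdk5rap1* was at 14.4 ± 3.58 CPM in WT and 17.2 ± 2.69 in mutants (log2 fold change 0.26, SE 0.20), with WT 3 as its lowest library at 10.5. *Actl10* was at 0.438 ± 0.098 and 0.599 ± 0.121 CPM (0.44, SE 0.28), from 12 to 55 reads per library. *1700003F12Rik* was at 0.775 ± 0.331 and 0.869 ± 0.402 CPM (0.14, SE 0.39), from 20 to 56 reads. In both groups of *1700003F12Rik*, replicate 1 held the highest value, at 1.15 CPM in WT and 1.33 in mutants.

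At higher coordinates, *Pxmp4* was at 4.20 ± 0.760 CPM in WT and 3.50 ± 0.072 in mutants (log2 fold change -0.26, SE 0.15). Its WT libraries ranged from 3.49 to 5.00 CPM, and the lowest of them lay among the mutant libraries. *Zfp341* was at 6.27 ± 0.396 and 5.28 ± 0.741 CPM (-0.24, SE 0.12), with mutant library 3 at the level of WT library 3. *Chmp4b* was at 118.5 ± 2.25 and 120.4 ± 3.96 CPM (0.02, SE 0.04). *Zfp341* shares exonic bases with 2 genes on the other strand that are not analysed here, 106 bases with *4930519P11Rik* and 282 with *Gm14198*.

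Read along the chromosome, the mean was higher in the mutants for the 5 genes from *Cdk5rap1* to *Actl10*, lower for *E2f1*, *Pxmp4* and *Zfp341*, and higher for *Chmp4b*. For *1700003F12Rik* and *Chmp4b* the log2 fold change was smaller than its SE. The median over the 9 genes was 0.14, against 0.00 over all tested genes. Of the 9 genes, *Necab3*, *Cbfa2t2* and *E2f1* had groups that did not overlap, 3 of 9, against 15.2% of all tested genes. At an unadjusted *P* under 0.05 in the edgeR quasi-likelihood test the same 3 passed, against 8.43% of all tested genes. After Benjamini-Hochberg adjustment over all genes edgeR called none of the 9, and 0.00642% of the tested genes, a single gene, *A3galt2* on chromosome 4. DESeq2 called the same 3, against 0.651% of genes with an adjusted value; *1700003F12Rik* and *Actl10* received none. Since the region was chosen on this contrast, nothing is read from these counts.

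**Figure D2:**
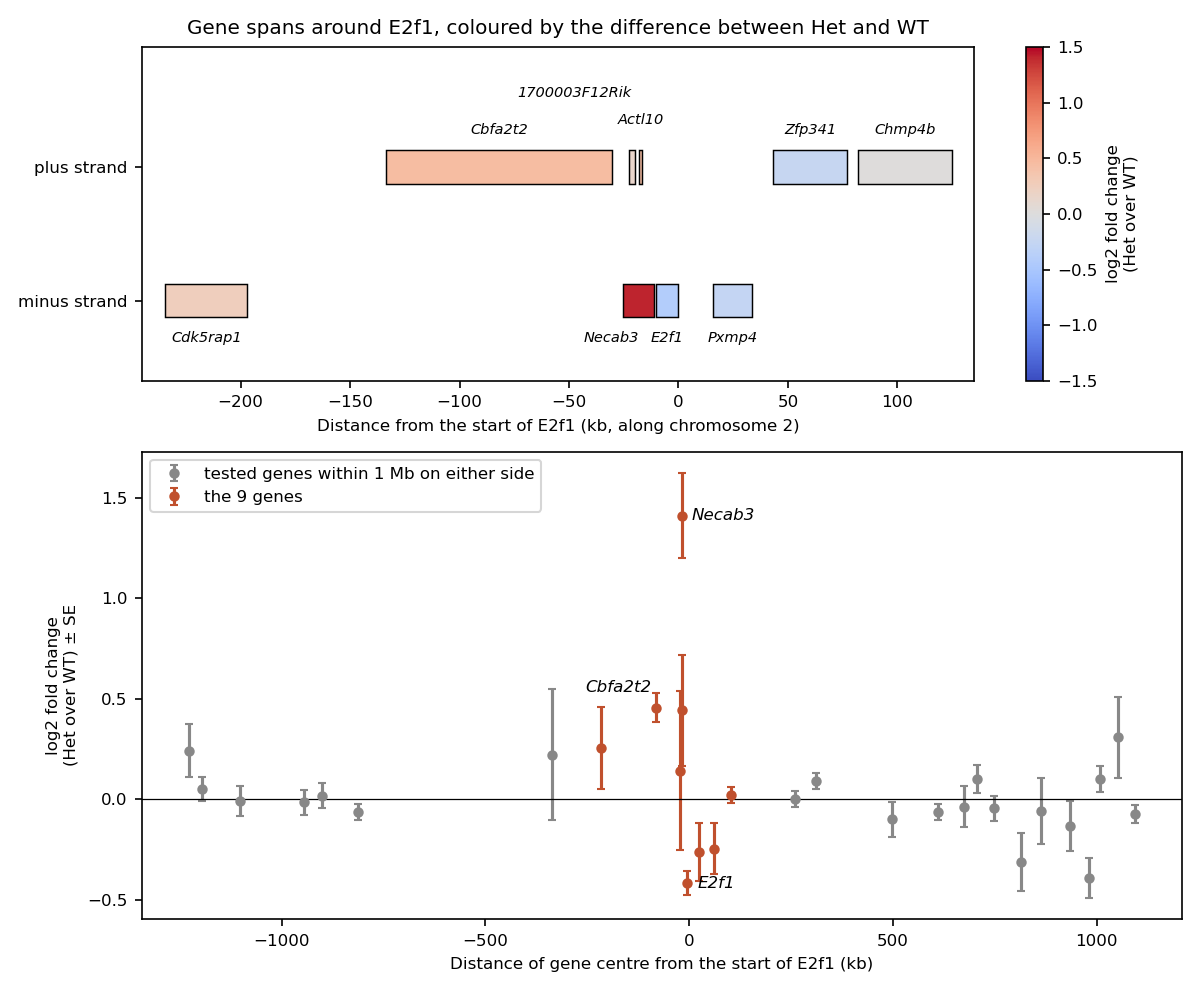
Top, spans of the 9 genes by strand against distance from the start of *E2f1* in kb, coloured by the log2 fold change of mutants (Het) over WT; bottom, the log2 fold change (± SE) of the 9 genes and of the tested genes within 1 Mb on either side. *Necab3* (1.41), *Cbfa2t2* (0.46) and *Actl10* (0.44) are the highest points and *E2f1* (-0.42) the lowest.

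The difference did not extend evenly to the genes around. The 3 tested genes before *Cdk5rap1* were *Dnmt3b* (0.02, SE 0.06), *Mapre1* (-0.06, SE 0.04) and *Bpifb5* (0.22, SE 0.33), and all 3 had overlapping groups. Of the 3 after *Chmp4b*, *Raly* (0.00, SE 0.04) and *Ahcy* (-0.10, SE 0.09) overlapped as well. *Eif2s2*, a translation initiation factor subunit, was slightly higher in every mutant library (321.6 ± 6.13 against 343.3 ± 12.7 CPM; 0.09, SE 0.04) and was called by neither tool.

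Among the 22 other tested genes within 1 Mb of the region, neither edgeR nor DESeq2 called any at an adjusted *P* of 0.05. At an unadjusted *P* under 0.05 edgeR listed 2 of them (9.09%), *Eif2s2* and *Acss2*, the latter lower in mutants at a log2 fold change of -0.39 (SE 0.10). Groups did not overlap for 3 of the 22 (13.6%), these 2 and *Trpc4ap*. *Acss2*, 823163 bases beyond *Chmp4b*, and *Trpc4ap* were singled out after their values were seen. The log2 fold changes of the 22 ran from -0.39 for *Acss2* to 0.31 for *Myh7b*, with a median of -0.03.

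Over the rest of chromosome 2, which also carries *Snrpb* 24155976 bases before *Cdk5rap1*, more genes had small *P*-values than elsewhere. Leaving out the 9 genes, 141 of 1175 tested genes of the chromosome had an unadjusted *P* under 0.05 (12.0%), against 8.09% of 13797 genes on other chromosomes. Groups did not overlap for 19.4% and 14.9%, respectively, and chromosome 2 ranked 1 of 20 chromosomes on both shares. The share at an unadjusted *P* under 0.05 was not highest next to the region. It was 9.09% within 1 Mb, 15.2% of 105 genes at 1 to 5 Mb, 12.4% of 177 at 5 to 20 Mb and 11.6% of 871 farther away. Of the 30 genes within 1 Mb of *Snrpb*, 4 (13.3%) passed, all higher in mutants, and groups did not overlap for 10 (33.3%). Directions on the chromosome were mixed, with 73 higher and 68 lower, and DESeq2 called 2 genes outside the region. Genes on 1 chromosome are not independent replicates, so these shares carry no test. The *Snrpb* allele and, by its strain name, the transgene both lie on this chromosome. Whether either has a part in these shares was not tested, and the design does not tell them apart.

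**Figure D3:**
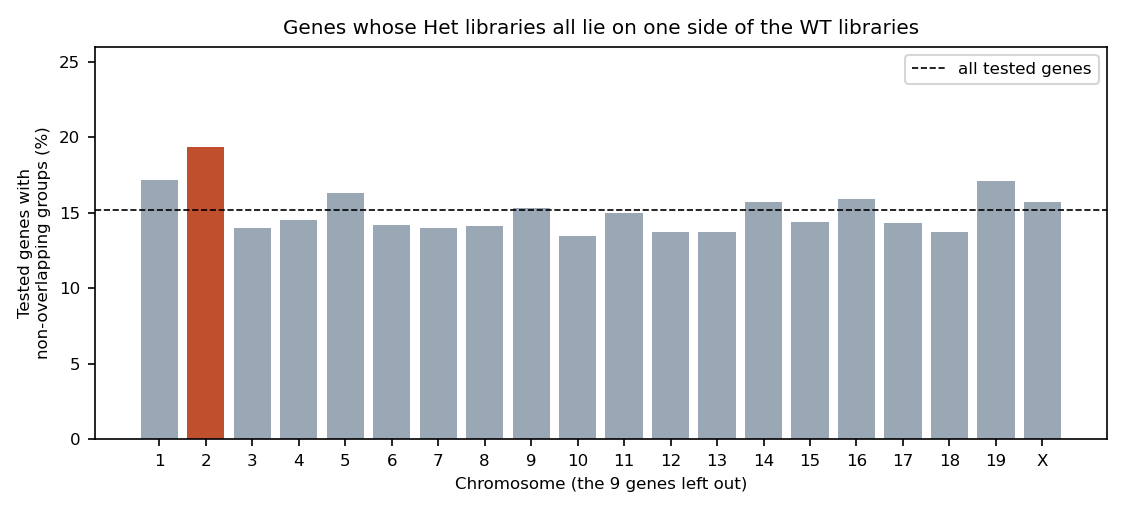
Share of tested genes (%) on each chromosome whose 3 mutant (Het) libraries all lie on one side of the 3 WT libraries, with the 9 genes left out; the dashed line is the share over all tested genes, 15.2%. Chromosome 2, in red, is highest at 19.4%, followed by chromosome 1 at 17.2%.

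Leaving out 1 library at a time kept the sign for 8 of the 9 genes. *Necab3*, *Cbfa2t2* and *E2f1* had groups that did not overlap, so leaving out a library could not change their sign. The log2 fold change stayed between 1.30 and 1.57 for *Necab3*, between 0.39 and 0.54 for *Cbfa2t2* and between -0.46 and -0.38 for *E2f1*. *1700003F12Rik* ran from -0.25 to 0.50 and changed sign, and *Cdk5rap1* ran from 0.08, without WT 3, to 0.40. *Actl10* ran from 0.27, without mutant library 2, to 0.58, *Pxmp4* from -0.38 to -0.12, without WT 3, and *Zfp341* from -0.36, without mutant library 3, to -0.16, without mutant library 1. *Chmp4b* stayed between 0.00 and 0.04. Without mutant library 3, *Cdk5rap1*, *Actl10*, *Zfp341* and *Chmp4b* had separate groups as well, 7 of 9 genes against 24.0% of tested genes in that setting. With any other library left out the number was 3 or 4. The 9 genes were chosen on this contrast, so nothing is read from these counts.

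**Figure D4:**
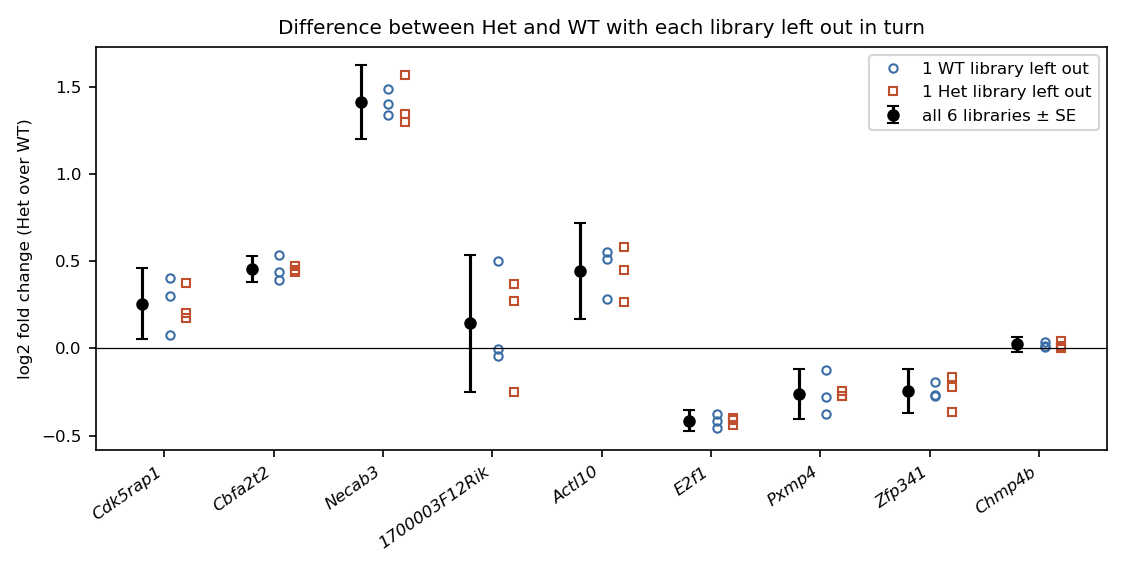
Log2 fold change of mutants (Het) over WT for each of the 9 genes, with all 6 libraries (filled points ± SE) and with each WT (circles) or Het (squares) library left out. Of the 9 genes only *1700003F12Rik* crosses 0. *Necab3*, *Cbfa2t2* and *E2f1* have groups that do not overlap, so leaving out a library could not change their sign.

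The genes that work with E2F1 were compared with *E2f1* itself. Of 19 other E2F family members, partners and upstream regulators, none was called by edgeR or DESeq2 and none had an unadjusted *P* under 0.05, with 4 higher and 15 lower means and a median log2 fold change of -0.04, against 0.00 over all tested genes. The other activators *E2f2* (-0.10, SE 0.09) and *E2f3* (0.02, SE 0.05) had overlapping groups. *E2f4* (-0.01) and *E2f5* (0.07), which bind retinoblastoma proteins at repressed promoters, overlapped too, as did the atypical repressor *E2f7* (-0.10). *E2f6* (-0.07) and *E2f8* (-0.11) were lower and *Rbl2* (0.20, SE 0.11) higher in every mutant library, 3 of 19 genes (15.8%) against 15.2% of all tested genes. The extremes of the list were the CDK inhibitor *Cdkn2c* (-0.34, SE 0.19) and the kinase *Cdk6* (-0.12, SE 0.16) on the low side, both with overlapping groups, and *Rbl2* and *E2f5* on the high side.

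Of 49 E2F target genes, 48 were tested and *Trp73* was not. None was called by edgeR or DESeq2. The mean was higher for 13 and lower for 35, and the median log2 fold change was -0.03. An unadjusted *P* under 0.05 was found for 7 (14.6%, against 8.43% of all tested genes), all lower in mutants, among them *Rrm1* (-0.15) and *Tk1* (-0.21) of nucleotide supply, the DNA polymerase subunits *Pola1* (-0.14) and *Pole* (-0.19), the repair gene *Brca1* (-0.13) and *Dnmt1* (-0.15), the maintenance DNA methyltransferase. *Tk1*, thymidine kinase, showed the lowest value of the list, with means of 69.3 CPM in WT and 59.8 in mutants, and *Pole*, a DNA polymerase subunit, the next. *Tyms* (0.06) and *Cdk1* (0.04), thymidylate synthase and the mitotic kinase, were at the other end. Groups did not overlap for 17 of the 48 (35.4%, against 15.2% of all tested genes), all lower in mutants except *Rfc3* (0.03). Some of these differences were small, such as *Mcm4* (-0.04). The targets are not independent replicates, so these shares carry no test. The log2 fold change of every tested target was nearer to 0 than that of *E2f1*. *E2f1* was among the genes chosen on this contrast, so nothing is read from this order.

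**Figure D5:**
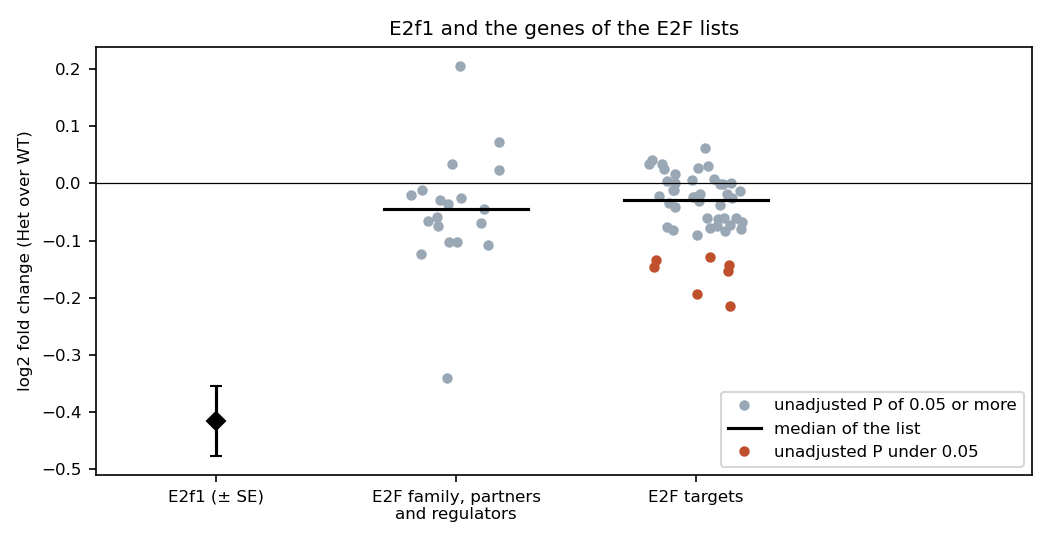
Log2 fold change of mutants (Het) over WT for *E2f1* (diamond, ± SE), for 19 E2F family members, partners and regulators and for 48 E2F targets, with bars at the list medians and genes at an unadjusted *P* under 0.05 in red. Both medians lie just below 0, and every tested target lies nearer to 0 than *E2f1*. *E2f1* was among the genes chosen on this contrast.

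*Wnt1*, whose regulatory sequences drive the Cre, was at 10.4, 7.36 and 7.24 CPM in WT and 12.6, 8.75 and 9.93 in mutants (log2 fold change 0.32, SE 0.18; edgeR quasi-likelihood adjusted *P*=0.675), with overlapping groups. Library totals ran from 36378803 to 74909774 counted reads. Marker genes of the neural tube summed to between 298 and 359 CPM in WT and 289 and 320 in mutants, and those of the neural crest to between 166 and 218 and between 198 and 214. *Ets1* made up most of the neural crest sum, at 116 to 158 CPM over the libraries. *Sox10* ran from 16.7 to 27.9 CPM, and *Foxd3*, *Tfap2a* and *Tfap2b* had lower maxima, so this sum says little about them. Markers of primitive erythroid cells summed to between 855 and 1461 CPM in WT and 863 and 1182 in mutants, and endothelial markers to between 142 and 169 and between 130 and 153. Cardiac markers summed to between 1.18 and 18.5 CPM in WT and 6.13 and 32.8 in mutants. Visceral endoderm markers summed to between 0.568 and 9.28 CPM in WT and 0.527 and 1.97 in mutants. Trunk *Hox* genes summed to at most 0.105 CPM per library, and no marker list separated the genotypes. No marker was at 0 in all libraries.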

How the data were processed

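RNA from 3 WT and 3 mutant (Het) pools of E9.0 heads was sequenced by the authors with a stranded total RNA kit, and all 6 libraries were used. The deposited table holds raw whole-number counts per gene symbol, with no normalization. The authors mapped trimmed reads to mm10 with STAR. The paper names HTSeq as the counter and the submitters' processing notes name featureCounts, and neither gives the strand setting. How reads of overlapping genes on opposite strands were assigned or left out is therefore not known. Total counts were 36378803 to 74909774 per library. No library was a copy of another (chi-square/df 9.74 to 26.8 for pairs).

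The main test was edgeR 4.0.16 under R 4.3.3 (TMM, filterByExpr, robust quasi-likelihood fit, two-sided, without covariates), with Benjamini-Hochberg adjustment at 0.05. Of 24421 genes, 15584 were tested. DESeq2 (version 1.42.0), the authors' tool, was an alternative on the 21083 genes with a count. CPM are scaled by TMM, RPKM also by exonic length in Gencode M21 (mm10; newer than the authors' annotation), whose symbols matched 23376 genes. Sequences are from RefSeq (GRCm38.p6). The code was tested on simulated counts. Other alternatives were other scalings, no filter, a minimum of 10 counts per library, a block for the replicate number and leaving out each library. The 9 genes and the lists of E2F genes, paralogs and markers were chosen with earlier results of these data known. The genes named are the 9, genes between them, the 3 tested genes beside each end, the paralogs, *E2f2* to *E2f8*, the 2 extreme genes of each E2F list in each direction, *Snrpb*, *Wnt1* and the 3 genes most like *Necab3* and *E2f1* over the libraries. Others were named after their values were seen, and some genes that the rule names are not reported here.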

Additional observations from a re-analysis of the deposited data

How the results depend on the processing

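Over all tested genes edgeR called 1 gene with TMM, DESeq2 size factors, library size or at least 10 counts in every library, 11 with no filter, and 84 were called with DESeq2. Leaving out each library gave 0 to 6 calls, 6 without WT 1, 5 without mutant library 1 and 0 without any of the others. Of the 9 genes none was called except 3 with DESeq2, 3 with no filter (*Cbfa2t2*, *Necab3* and *E2f1* in both) and 0 to 1 with a library left out, *Cbfa2t2* without WT 1. The number of the 9 with groups apart was 3 to 7 with a library left out, 7 without mutant library 3. The cause of these shifts was not tested. With a library left out, the median log2 fold change of the E2F targets ran from -0.0456, without WT 3, to -0.0198. The share of chromosome 2 genes at an unadjusted *P* under 0.05, added after the data were seen, was 6.94% with DESeq2 (5.02% on other chromosomes) and 7.07% to 15.6% with a library left out (4.88% to 11.0%). It was above that of the other chromosomes in every setting, and ranked 2 of 20 without WT 3 and 3 of 20 without mutant library 2. Same-numbered libraries deviated together with a correlation of 0.169, 0.032 and 0.36. WT 1 and WT 3 each correlated best with the mutant library of the same number. For WT 2, mutant library 1 (0.039) and mutant library 2 (0.032) were nearly tied. The labels do not name the numbers as pairs, and the main test did not take them as such. With the replicate number as a block 1 gene was called, and 0 of the 9. No other result listed changed its side of a threshold or moved beyond the limit set for it. The number of reads limits *Actl10*, *1700003F12Rik* and *Necab3*.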

Other observations

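Paralogs of *Necab3*, *Cbfa2t2*, *Chmp4b* and *Cdk5rap1* elsewhere in the genome were compared in the same libraries. edgeR called none of the 6 paralogs, DESeq2 called none, and none had an unadjusted *P* under 0.05. The *Necab3* paralogs *Necab1* (log2 fold change -0.03, SE 0.22) and *Necab2* (-0.14, SE 0.12) had overlapping groups. *Necab2*, at 24.1 ± 4.25 CPM in WT, was the most abundant of the 3 *Necab* genes. Of the *Cbfa2t2* paralogs, *Cbfa2t3* (-0.05, SE 0.17) overlapped between genotypes, and *Runx1t1* was lower in every mutant library (8.82 ± 0.411 CPM in WT and 7.27 ± 1.43 in mutants; -0.27, SE 0.14). *Chmp4c*, a paralog of *Chmp4b*, was at 1.23 ± 0.242 and 1.30 ± 0.0723 CPM (0.07, SE 0.19). *Cdkal1*, a tRNA methylthiotransferase related to *Cdk5rap1*, was higher in every mutant library (28.1 ± 0.266 and 30.1 ± 0.418 CPM; 0.09, SE 0.05). Groups thus did not overlap for 2 of the 6 paralogs (33.3%, against 15.2% of all tested genes).

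Over the 6 libraries, the log2 CPM of *Necab3* was most like that of *Zfp566* on chromosome 7 (Pearson's r = 0.999), *Med27* on chromosome 2 (0.995) and *Cdkal1* on chromosome 13 (0.992), out of 60 genes with r above 0.95. That of *E2f1* was most like *Mboat7* on chromosome 7 (0.992), *Tubg1* on chromosome 11 (0.991) and *Ddx39b* on chromosome 17 (0.989), out of 53. The points share 6 libraries that fall into the 2 genotypes, and with so few points and 15584 genes such values arise for many genes.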
